A study of Mus musculus with 36 samples.

Results

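The middle of the rest phase was examined in the liver of normoxia (control) mice, as the change in transcript level from ZT4 to ZT8, where ZT is the time in hours since lights on. It rests on 6 of the 36 liver libraries of the series, 3 at ZT4 and 3 at ZT8, and on all gene symbols listed on 1 row of the expression table. These were 24066 of 24346 symbols, of which 17356 were above 0 in at least 1 of the 6 libraries and 13215 were tested because their level averaged 0.1 FPKM or more across all 36. The mice were wild-type male C57BL/6JRj mice of 16 weeks, housed 5 per cage with 12 h of light and 12 h of dark and free access to food. The normoxia mice went through air-to-air cycles for 4 weeks, matched to the 60 hypoxia cycles per hour of the chronic intermittent hypoxia (IH) mice, whose inspired oxygen fell to 5% and returned to 21% from ZT0 to ZT8 each day. Each library came from a different mouse, killed by decapitation. FPKM, fragments per kilobase of transcript and per unit of mapped library size, is a level scaled to transcript length and library size. The read counts behind it are not known, so neither is the depth of any library.

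The liver clock is a feedback loop of transcription. BMAL1, encoded by Arntl, pairs with CLOCK or NPAS2 and activates genes through E-box sequences, among them the Period and Cryptochrome repressors, the REV-ERB receptors encoded by Nr1d1 and Nr1d2, and the PAR bZIP factors DBP, TEF and HLF. The REV-ERB receptors repress Arntl and other genes through ROR elements, and the PAR bZIP factors activate genes through D-boxes that the repressor NFIL3 also binds. In a nocturnal mouse the light phase is the time of rest and reduced feeding, during which the liver turns from the storage of nutrients to their release.

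The FPKM of all rows summed to between 572970 and 616662 in the 6 libraries, and 15663 to 15980 symbols were above 0 in each. On the log2(FPKM + 1) scale, libraries of the same time point correlated across genes with r from 0.989 to 0.993 and libraries of different time points with r from 0.978 to 0.988. ZT8 replicate 1 was the ZT8 library nearest to ZT4, with r of 0.987 to 0.988 against at most 0.983 for the other two. The acute-phase gene Saa1 had FPKM of 2357, 57.4 and 2434 at ZT4 and 828, 24.0 and 19.1 at ZT8, so that 2 libraries of ZT4 and 1 of ZT8 stood well above the rest. Alb, the defining hepatocyte transcript, lay between 23400.0 and 34260.0 FPKM in every library, and the 7 hepatocyte markers tested summed to 53740 to 55550 FPKM at ZT4 and 46330 to 57300 at ZT8. None of the 47 tested markers of 10 cell types was called by limma, with 6 at an unadjusted p under 0.05, all lower at ZT8, and 5 by a Cyber-T kind of test at a nominal P of 0.01. Of all 13215 genes tested, 1997 were higher and 1420 lower at that unadjusted p, and 985 and 852 in the Cyber-T kind of test. In whole liver, fewer cells of a type and less RNA per cell cannot be told apart.

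Between ZT4 and ZT8, 346 genes rose and 365 fell in the limma test with a Benjamini-Hochberg adjusted p under 0.05, which is 2.62% and 2.76% of the genes tested. With the looser rule of a nominal P up to 0.01, the counts were 829 (6.27%) higher and 684 (5.18%) lower. The median log2 difference, ZT8 minus ZT4, was 0.03 over all genes, 0.54 over the genes that rose and -0.53 over those that fell. On this scale 45 of the risen and 54 of the fallen genes differed by at least 2-fold. The counts depended on single libraries. Without ZT4 replicate 1 they were 37 and 63, without ZT4 replicate 2 197 and 269, without ZT4 replicate 3 62 and 117, without ZT8 replicate 1 1009 and 494, without ZT8 replicate 2 25 and 46, and without ZT8 replicate 3 30 and 54. Every one of the 711 called genes kept its direction in each of these fits. It had to, since a gene whose groups do not overlap cannot change sign when 1 library is left out. With all 6 libraries, the groups overlapped in none of the 346 risen and 365 fallen genes. Of all 13215 genes tested, 2354 had all ZT8 libraries above all ZT4 libraries and 1699 had all below. Of the 80 called genes named here, 25 kept an adjusted p under 0.05 whichever library was left out, and these were Rgs16, Dbp, Usp2, Ciart, Cyp2a5, Upp2, Per3, Per2, Nr1d2, Tef, Bhlhe41, Cyp7a1, Por, Pfkfb3, Arntl, Npas2, Nfil3, Tubb2a, Tubb2b, Chka, Clpx, Id3, Hsp90aa1, Oasl1 and Tacc2. The others lost it without at least 1 library: 51 without ZT4 replicate 1, 25 without ZT4 replicate 2, 41 without ZT4 replicate 3, 3 without ZT8 replicate 1, 54 without ZT8 replicate 2 and 52 without ZT8 replicate 3.

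**Figure D1:**
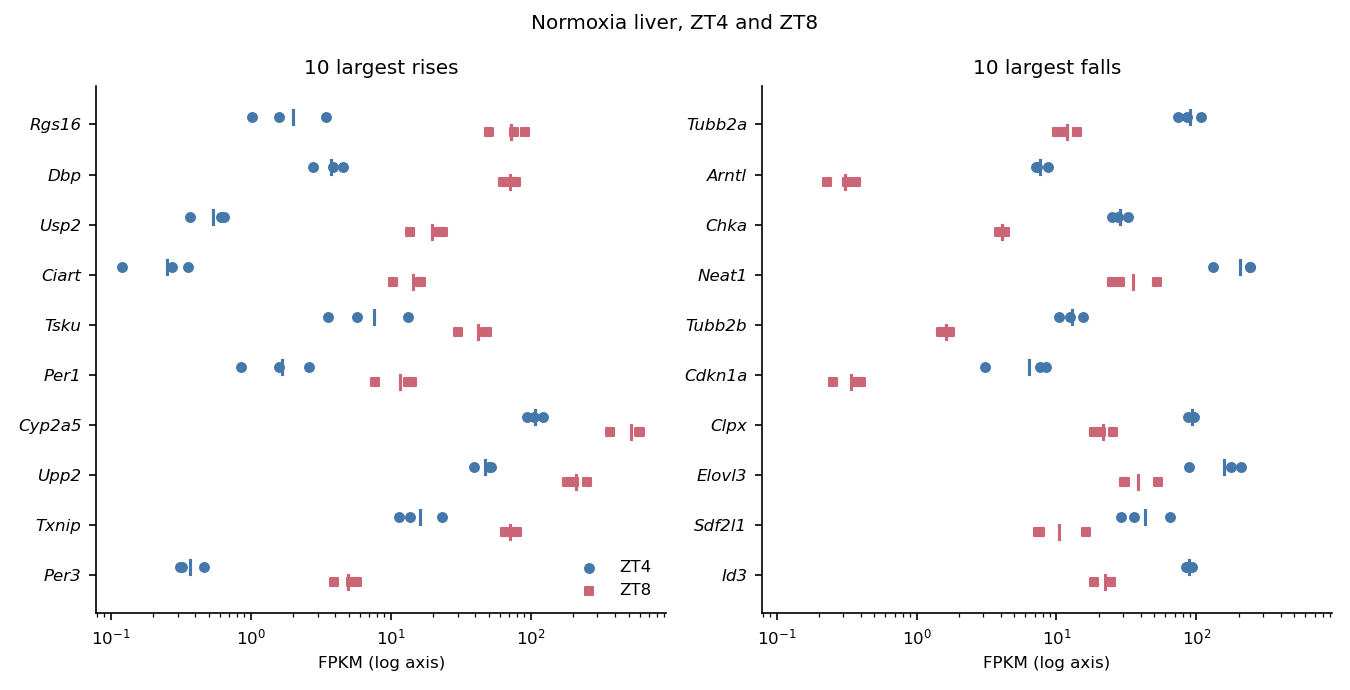
FPKM (log axis) of the 10 genes with the largest rises (left) and the 10 with the largest falls (right) among called genes averaging 1 FPKM or more, where circles are the 3 ZT4 libraries, squares the 3 ZT8 libraries and vertical ticks the means. The 20 genes were chosen among those whose ZT4 and ZT8 libraries do not overlap. The distance between the groups is widest for Ciart, Usp2 and Rgs16 among the rises and Arntl and Cdkn1a among the falls.

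The largest rise on the log2 scale was that of Rgs16, which encodes a regulator that shortens G protein signalling. It lies at chr1:153740349-153745468 (mm10, GENCODE annotation). Its FPKM were 3.42, 1.02 and 1.58 at ZT4 and 50.2, 75.6 and 90.4 at ZT8, a 35.9-fold rise of the mean (log2 difference ± SE, 4.64 ± 0.32, adjusted p = 0.00153). Dbp, the PAR bZIP factor driven by E-boxes, at chr7:45705088-45710203, had 3.90, 2.77 and 4.52 at ZT4 and 62.9, 78.4 and 71.2 at ZT8 (19.0-fold, 3.94 ± 0.15, adjusted p = 0.000313). The lowest ZT8 library was above the highest ZT4 library by more than 10-fold for both genes. Usp2, a ubiquitin protease with a role in the clock, had 0.610, 0.367 and 0.641 at ZT4 and 13.7, 23.7 and 22.0 at ZT8 (36.7-fold, 3.73 ± 0.20, adjusted p = 0.000779). Ciart, which encodes the repressor CHRONO, had 0.355, 0.120 and 0.276 at ZT4 and 10.4, 16.2 and 16.4 at ZT8, all under 1 FPKM at ZT4 (57.3-fold, 3.60 ± 0.18, adjusted p = 0.000527). ZT8 replicate 1 was the lowest of the ZT8 libraries for Rgs16, Dbp, Usp2 and Ciart, and still far above ZT4.

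Further down the list stood 6 genes that rose between 4.43-fold and 13.6-fold. Tsku, a secreted hepatokine, had 13.4, 3.56 and 5.77 at ZT4 and 30.4, 47.3 and 48.3 at ZT8, with ZT4 replicate 1 the highest of its group (2.47 ± 0.41, adjusted p = 0.0262). Upp2, which breaks down uridine, had 39.0, 50.3 and 52.2 at ZT4 and 180.5, 204 and 251 at ZT8 (2.14 ± 0.16, adjusted p = 0.00189). Txnip, an inhibitor of thioredoxin whose transcription follows glucose, had 13.6, 23.4 and 11.5 at ZT4 and 65.7, 79.7 and 69.7 at ZT8 (2.14 ± 0.24, adjusted p = 0.00953). The groups were clearly apart for the last 2, with the ZT8 libraries within 1.39-fold and 1.21-fold of each other. Cyp2a5, a cytochrome P450 that oxidizes coumarin and nicotine, had 123, 94.2 and 105 at ZT4 and 368, 607 and 599 at ZT8 (2.25 ± 0.21, adjusted p = 0.00546). Cyp2a4, its near-identical paralogue, rose as well, from 3.90 ± 0.325 (SD, n = 3) to 19.4 ± 6.32 FPKM (2.01 ± 0.24, adjusted p = 0.0109). Cufflinks divides reads between such copies by estimation, so the share of each gene is uncertain. The call of Tsku was lost without ZT4 replicate 3, ZT8 replicate 2 or ZT8 replicate 3, with an adjusted p of up to 0.109, and that of Txnip without ZT8 replicate 2, at 0.0512.

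Among the falls, the largest was that of Tubb2a, a beta-tubulin at chr13:34074274-34078007, with FPKM of 108, 74.1 and 86.2 at ZT4 and 14.0, 10.0 and 11.3 at ZT8, a 7.58-fold fall (-2.82 ± 0.16, adjusted p = 0.000779). Its paralogue Tubb2b had 15.5, 10.5 and 12.6 at ZT4 and 1.62, 1.49 and 1.74 at ZT8 (7.95-fold, -2.39 ± 0.14, adjusted p = 0.000779), and reads of these similar tubulins may also be divided in an uncertain way. Chka, the choline kinase that opens phosphatidylcholine synthesis, had 32.7, 27.5 and 25.1 at ZT4 and 4.27, 3.89 and 4.08 at ZT8 (6.97-fold, -2.53 ± 0.10, adjusted p = 0.000313). For the 3 genes each ZT4 library exceeded each ZT8 library by at least 5-fold. Clpx, a subunit of the mitochondrial ClpXP protease, had 96.4, 95.0 and 86.5 at ZT4 and 25.5, 20.7 and 18.6 at ZT8 (-2.06 ± 0.12, adjusted p = 0.000779). Id3, an inhibitor of basic helix-loop-helix factors, had 84.3, 93.1 and 86.2 at ZT4 and 18.6, 24.3 and 24.0 at ZT8 (-1.94 ± 0.11, adjusted p = 0.000779). The replicates of both genes were tight, and ZT4 lay about 4-fold above ZT8.

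Neat1, the long non-coding RNA on which paraspeckles assemble, had FPKM of 131, 241 and 241 at ZT4 and 52.5, 28.5 and 24.9 at ZT8, with ZT8 replicate 1 the nearest to ZT4 (-2.52 ± 0.34, adjusted p = 0.0151). Cdkn1a, the cell cycle inhibitor p21, had 7.69, 3.08 and 8.41 at ZT4 and 0.373, 0.252 and 0.399 at ZT8, and thus fell 18.7-fold (-2.37 ± 0.30, adjusted p = 0.0138). Elovl3, a fatty acid elongase with a strong daily rhythm, had 176, 209 and 88.2 at ZT4 and 53.5, 31.1 and 30.2 at ZT8 (-1.98 ± 0.36, adjusted p = 0.0317). Groups did not overlap for these genes, as for all called genes, but their ZT4 libraries differed by 1.84-fold to 2.74-fold among themselves. The adjusted p was up to 0.0777 for Neat1, 0.073 for Cdkn1a and 0.124 for Elovl3 when 1 library was left out, with ZT8 replicates 2 and 3 each enough to end all 3 calls.

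Of the 15 core clock genes, 5 rose (Per1, Per2, Per3, Cry2 and Nr1d2), 3 fell (Arntl, Npas2 and Clock) and 7 were not called, against 2.62% and 2.76% of all genes. All 3 genes of the activator complex fell. Arntl, at chr7:113207465-113314126, had FPKM of 8.64, 7.19 and 7.21 at ZT4 and 0.372, 0.318 and 0.228 at ZT8, which is 25.1-fold less (-2.73 ± 0.09, adjusted p = 0.000258). Npas2 had 1.01, 1.89 and 1.62 at ZT4 and 0.0618, 0.0342 and 0.0377 at ZT8, so that all ZT8 libraries were under 0.1 FPKM (33.8-fold less, -1.25 ± 0.13, adjusted p = 0.00686). Clock, its paralogue, went only from 2.84 ± 0.185 to 1.71 ± 0.0955 FPKM (SD, n = 3) (-0.51 ± 0.07, adjusted p = 0.0181). The fall was thus steep for Arntl and Npas2 and shallow for Clock. The time points did not overlap for any of the activators, which holds for every called gene.

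The Period genes, which encode the core repressors, rose in every library of ZT8 relative to ZT4. Per1 had FPKM of 0.846, 1.60 and 2.60 at ZT4 and 7.65, 13.3 and 14.1 at ZT8 (6.94-fold, 2.25 ± 0.30, adjusted p = 0.0143). Per2 had 0.907, 0.977 and 1.42 at ZT4 and 3.92, 5.48 and 5.62 at ZT8 (4.54-fold, 1.51 ± 0.15, adjusted p = 0.00647). Per3 had 0.321, 0.310 and 0.464 at ZT4 and 3.96, 5.21 and 5.77 at ZT8 (13.6-fold, 2.12 ± 0.12, adjusted p = 0.000779). Per3 showed the largest ratio and Per2 the smallest, and the ratio of Per3 rests on ZT4 levels under 0.5 FPKM. Of the Cryptochromes, Cry2 rose (0.55 ± 0.10, adjusted p = 0.0367), while Cry1 had 2.91, 4.14 and 2.83 at ZT4 and 1.77, 1.98 and 3.07 at ZT8 with overlapping groups (-0.40 ± 0.18, adjusted p = 0.215). Nr1d2 had 8.53, 9.69 and 8.67 at ZT4 and 17.0, 19.5 and 22.2 at ZT8 (2.18-fold, 1.04 ± 0.11, adjusted p = 0.00711). Nr1d1, its paralogue, was already at 55.2, 34.2 and 28.0 at ZT4 and 51.8, 64.3 and 60.4 at ZT8, where ZT4 replicate 1 lay within the range of ZT8 (0.63 ± 0.23, adjusted p = 0.154). Rora, which encodes an activator that competes with the REV-ERB receptors, did not pass (-0.24 ± 0.12, adjusted p = 0.253). The kinase genes Csnk1d and Csnk1e, which set the stability of the repressors, were not called, with log2 differences of 0.05 and -0.20. Leaving out 1 library left 3 to 6 core clock genes higher and 2 or 3 lower. The calls of Per1 (adjusted p up to 0.0767) and Clock (up to 0.0894) were lost without ZT4 replicate 1, ZT8 replicate 2 or ZT8 replicate 3, and that of Cry2 (up to 0.131) without any library but ZT8 replicate 1.

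**Figure D2:**
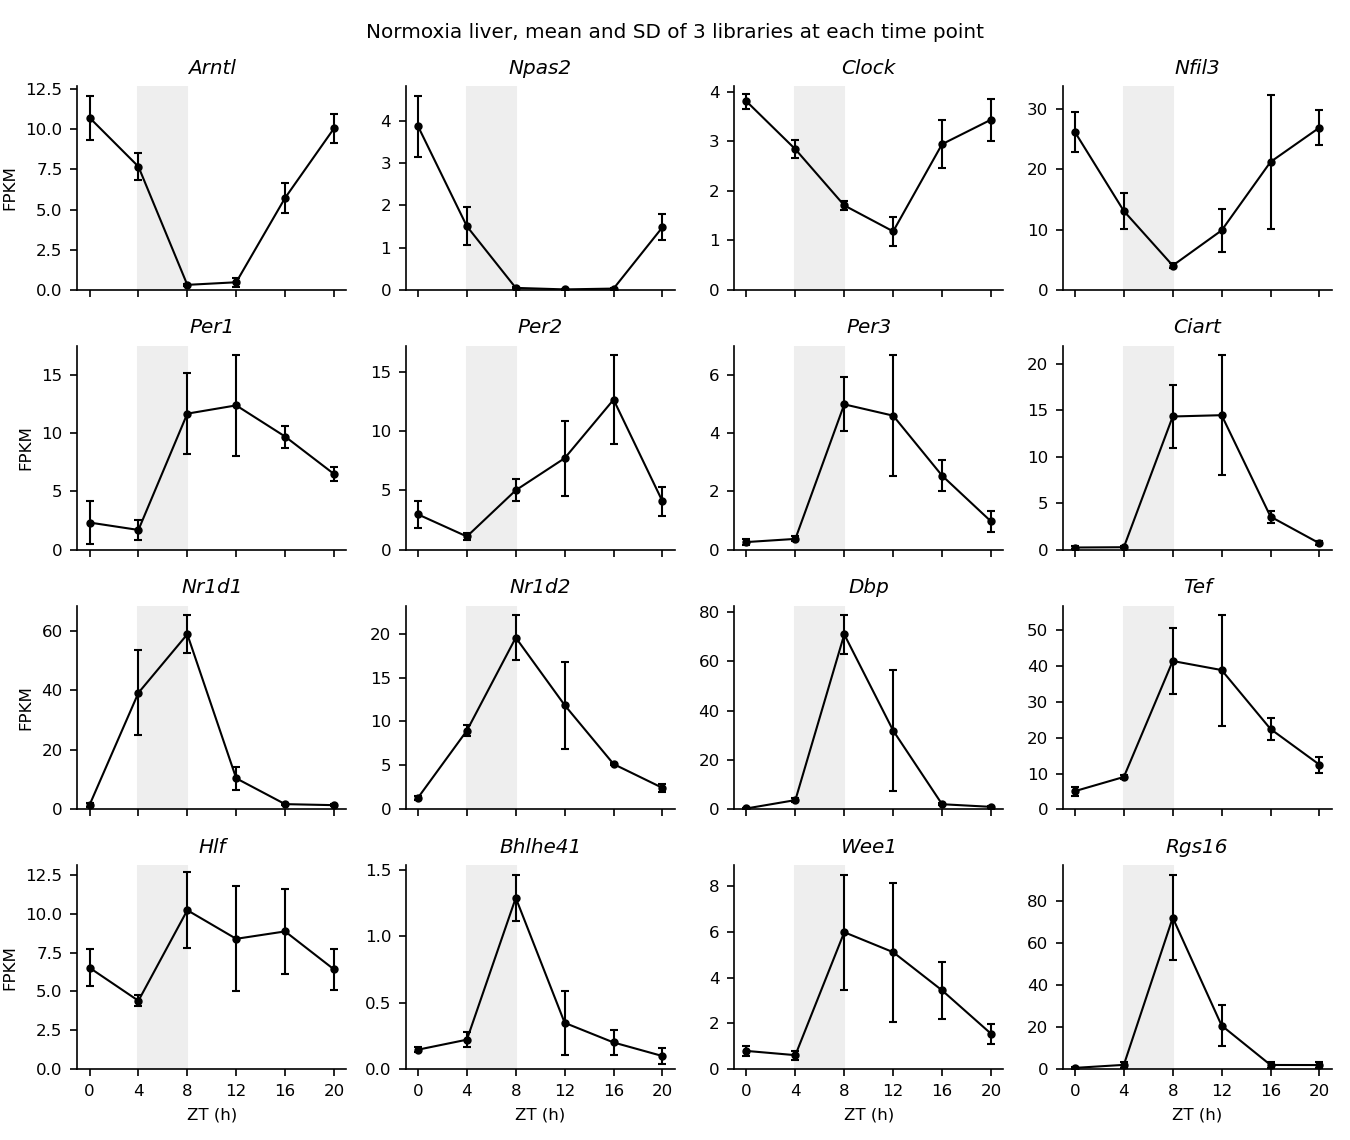
Mean FPKM (linear axis) of 16 clock genes over the 6 normoxia time points, with bars for the SD of 3 libraries (at ZT12 including replicate 2, whose FPKM sum stands apart) and the interval from ZT4 to ZT8 shaded. Arntl, Npas2, Clock and Nfil3 go down across the shaded interval while the Period genes, Ciart, Dbp, Tef, Wee1, Bhlhe41 and Rgs16 go up, and Nr1d1 is already at 39.1 ± 14.3 FPKM at its start.

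The clock output factors were the list that changed most, with 8 of 10 members higher, 1 lower and a median log2 difference of 1.70, against 0.03 over all genes. Besides Dbp, Usp2 and Ciart, Tef rose 4.58-fold, with FPKM of 9.56, 8.38 and 9.20 at ZT4 and 31.1, 44.2 and 49.1 at ZT8 (2.06 ± 0.16, adjusted p = 0.0029). Hlf, the third PAR bZIP factor, rose less, with 4.74, 4.03 and 4.42 at ZT4 and 7.48, 11.0 and 12.2 at ZT8 (1.03 ± 0.17, adjusted p = 0.0246). The antagonist of these factors fell: Nfil3 had 14.2, 15.3 and 9.75 at ZT4 and 3.57, 4.35 and 4.14 at ZT8 (3.25-fold less, -1.47 ± 0.16, adjusted p = 0.00953). At ZT4, Nfil3 exceeded Dbp in every library by at least 2.15-fold, and at ZT8 Dbp exceeded Nfil3 by at least 17.2-fold, both as levels per length. Wee1, the mitotic kinase with E-boxes in its promoter, had 0.838, 0.532 and 0.459 at ZT4 and 3.12, 7.04 and 7.83 at ZT8 (9.83-fold, 2.05 ± 0.28, adjusted p = 0.0165). Nampt, the rate-limiting enzyme of NAD salvage, had 6.77, 6.45 and 6.50 at ZT4 and 9.92, 16.8 and 14.6 at ZT8 (0.93 ± 0.17, adjusted p = 0.0334). Of the DEC repressors, which compete for E-boxes, Bhlhe41 rose from 0.221 ± 0.0543 to 1.29 ± 0.174 FPKM (SD, n = 3) (0.90 ± 0.07, adjusted p = 0.00279). Bhlhe40 had 12.4, 23.2 and 39.6 at ZT4 and 62.6, 57.0 and 57.3 at ZT8 and missed the threshold (1.34 ± 0.36, adjusted p = 0.0776), with ZT4 libraries spread over 3.18-fold. Without 1 library, 5 to 8 members stayed higher and Nfil3 stayed lower. The adjusted p reached 0.107 for Hlf, 0.121 for Nampt and 0.0777 for Wee1. These 3 calls were lost without ZT4 replicate 1, ZT4 replicate 3, ZT8 replicate 2 or ZT8 replicate 3, and those of Hlf and Nampt also without ZT4 replicate 2.

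Promoters of 6 clock genes and of Cyp2a5 are shown as examples of the elements through which the loop is known to act. They were picked because they hold a match, which most named genes do not. The sequences come from RefSeq (GRCm38.p6) and are written 5′ to 3′ in the direction of transcription. They cover the 250 bases before the annotated start, and for Arntl 30 bases around the match, which lies after the start. Capitals mark matches to the E-box CACGTG, the D-box TTATGNAA or the ROR element core TAGGTCA on either strand, and no match overlapped another.
Ciart, chr3:95882229-95882478, minus strand: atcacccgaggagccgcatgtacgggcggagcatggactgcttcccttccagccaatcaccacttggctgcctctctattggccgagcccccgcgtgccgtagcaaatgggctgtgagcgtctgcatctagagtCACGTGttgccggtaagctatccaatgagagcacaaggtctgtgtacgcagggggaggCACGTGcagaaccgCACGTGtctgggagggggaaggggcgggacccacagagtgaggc
Per1, chr11:69098699-69098948, plus strand: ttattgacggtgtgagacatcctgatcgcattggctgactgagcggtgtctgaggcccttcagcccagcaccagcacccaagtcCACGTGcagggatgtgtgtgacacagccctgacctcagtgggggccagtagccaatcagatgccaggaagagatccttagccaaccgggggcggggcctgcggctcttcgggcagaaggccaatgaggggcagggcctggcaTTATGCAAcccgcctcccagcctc
Per3, chr4:151044666-151044915, minus strand: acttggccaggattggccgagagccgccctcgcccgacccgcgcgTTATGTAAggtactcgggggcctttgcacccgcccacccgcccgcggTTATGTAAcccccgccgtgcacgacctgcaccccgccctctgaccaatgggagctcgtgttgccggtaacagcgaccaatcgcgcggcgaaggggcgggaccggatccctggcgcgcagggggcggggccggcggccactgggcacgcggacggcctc
Tef, chr15:81802423-81802672, plus strand: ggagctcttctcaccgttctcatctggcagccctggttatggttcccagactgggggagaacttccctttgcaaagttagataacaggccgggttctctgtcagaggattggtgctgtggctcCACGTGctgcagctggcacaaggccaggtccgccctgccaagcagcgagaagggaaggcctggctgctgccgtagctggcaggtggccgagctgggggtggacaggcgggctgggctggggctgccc
Cyp2a5, chr7:26835089-26835338, plus strand: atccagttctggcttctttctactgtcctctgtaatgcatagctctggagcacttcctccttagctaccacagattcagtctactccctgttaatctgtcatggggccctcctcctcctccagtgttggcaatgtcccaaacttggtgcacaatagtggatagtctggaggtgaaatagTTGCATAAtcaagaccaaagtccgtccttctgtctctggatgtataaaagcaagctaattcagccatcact
Arntl, chr7:113207530-113207559, plus strand: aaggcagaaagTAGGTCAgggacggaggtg
Nfil3, chr13:52981040-52981289, minus strand: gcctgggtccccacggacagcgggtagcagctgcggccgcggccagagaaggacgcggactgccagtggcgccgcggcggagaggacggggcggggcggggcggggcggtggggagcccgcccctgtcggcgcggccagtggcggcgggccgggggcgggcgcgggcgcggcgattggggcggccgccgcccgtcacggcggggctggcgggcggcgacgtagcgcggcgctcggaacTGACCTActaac

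Ciart holds 3 E-boxes in this window, Per1 holds 1 E-box and 1 D-box, Per3 holds 2 D-boxes and Tef holds 1 E-box, and all 4 genes rose. Cyp2a5, which also rose, holds 1 D-box. Arntl and Nfil3, which fell, hold 1 ROR element core each. Of the 73 named genes with a promoter in the table, 39 rose, 28 fell and 6 were not called. No motif was found in 25, 23 and 5 of these, among them Rgs16, Dbp, Usp2, Cry2 and Nr1d2, which rose, and Clock and Npas2, which fell. An E-box was held by 6 of the risen genes, by Insig1, which fell, and by Cry1, which was not called. A D-box was held by 6 risen genes and 0 fallen ones, and the ROR element core by 3 fallen genes and by Pklr and Slc37a4, which rose. Among all 32851 RefSeq promoter windows of 300 bases (250 before and 50 after the start), 7.15% held an E-box, 3.38% a D-box and 2.61% the ROR element core. Of the 9981 tested genes with a promoter in the table, 11.7% held an E-box in at least 1 window, against 16.7% of the 282 risen genes and 10.7% of the 270 fallen genes that could be matched. For the D-box the shares were 2.79% of the tested, 5.67% of the risen and 4.07% of the fallen genes. For the ROR element core they were 2.56%, 3.55% and 5.19%. The cAMP response element TGACGTCA was held by 3.53% of the tested, 1.42% of the risen and 2.22% of the fallen genes. A match is a stretch of letters and was not tested for binding, and no test was made of these shares.

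**Figure D3:**
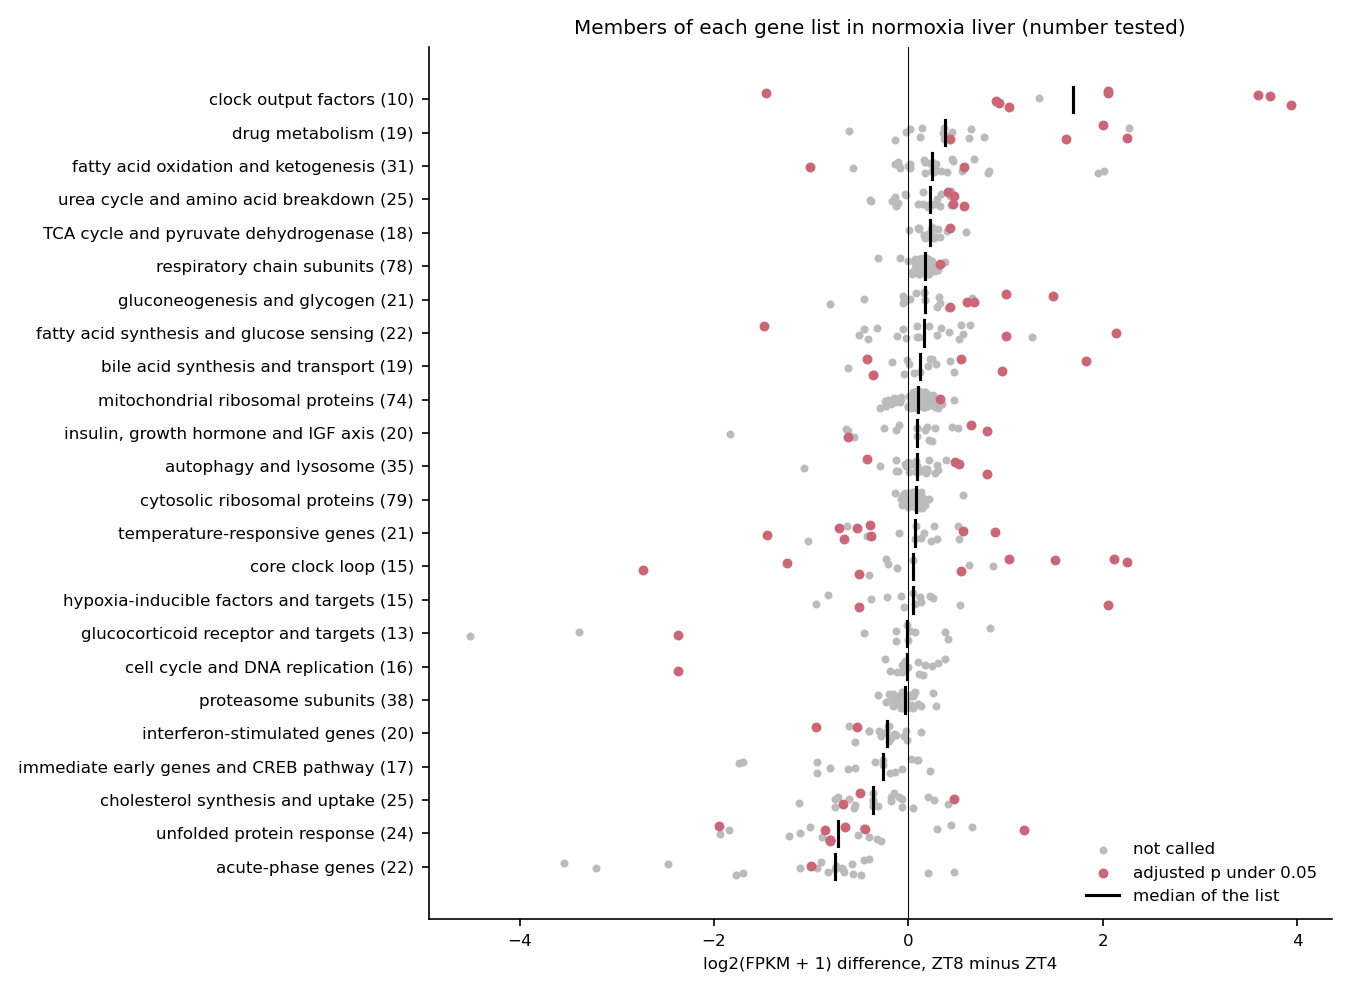
Log2(FPKM + 1) difference, ZT8 minus ZT4, of every tested member of 24 gene lists, with called genes in red, other genes in grey, and the list median as a black bar. The clock output factors lie furthest to the right with a median of 1.70, and the unfolded protein response (-0.73) and the acute-phase genes (-0.75) furthest to the left.

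In glucose metabolism, 5 of 21 genes of gluconeogenesis and glycogen rose and none fell, against 2.62% and 2.76% of all genes. The median log2 difference of the list was 0.17. Gys2, the liver glycogen synthase, had FPKM of 36.2, 38.7 and 35.3 at ZT4 and 79.1, 117 and 124 at ZT8 (2.90-fold, 1.49 ± 0.17, adjusted p = 0.00976). Slc2a2, the glucose transporter GLUT2, had 52.3, 52.8 and 43.8 at ZT4 and 77.5, 108 and 119.5 at ZT8 (2.05-fold, 1.00 ± 0.17, adjusted p = 0.0263). Slc37a4, which carries glucose 6-phosphate into the endoplasmic reticulum, had 50.3, 39.5 and 49.1 at ZT4 and 68.3, 71.8 and 82.9 at ZT8 (0.67 ± 0.12, adjusted p = 0.0298). In each of these genes ZT8 replicate 1 was the lowest ZT8 library and still above all of ZT4. Ppp1r3g, a subunit that directs protein phosphatase 1 to glycogen, also rose (0.60 ± 0.13, adjusted p = 0.046), from a ZT4 mean of 0.189 ± 0.0327 FPKM. Pklr, the liver pyruvate kinase of glycolysis, had 60.4, 46.1 and 59.5 at ZT4 and 114, 109 and 110.3 at ZT8 (2.01-fold, 1.00 ± 0.11, adjusted p = 0.00953). Pfkfb3, which makes the activator of phosphofructokinase and stands here in the list of 15 hypoxia-inducible factors and targets, had 0.997, 1.16 and 1.06 at ZT4 and 6.92, 10.6 and 5.91 at ZT8 (7.27-fold, 2.05 ± 0.18, adjusted p = 0.0049). The transporter Slc2a1, of the same list, fell from 5.41 ± 0.689 to 3.49 ± 0.113 FPKM (-0.51 ± 0.09, adjusted p = 0.0324), and the other 13 members were not called. Without 1 library, 0 to 7 gluconeogenesis and glycogen genes were higher, 0 without ZT4 replicate 1 or ZT8 replicate 2, 1 without ZT4 replicate 3 or ZT8 replicate 3, 3 without ZT4 replicate 2 and 7 without ZT8 replicate 1. In the fit without ZT4 replicate 2, 2 members were lower. At an unadjusted p under 0.05, 2 were lower (1420 of all 13215 genes). The Cyber-T kind of test also gave 2 lower (852 of all genes). The median was 0.29 without ZT4 replicate 3. The call of Slc2a1 held only without ZT8 replicate 1 (adjusted p up to 0.126 otherwise), and that of Pklr was lost without ZT8 replicate 2 or 3 (up to 0.0526).

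In fatty acid metabolism, few genes passed the test, where 2.62% of all genes rose and 2.76% fell. Of 22 genes of fatty acid synthesis and glucose sensing, Txnip and Pklr rose and Insig2 fell, the last with FPKM of 119, 105 and 111 at ZT4 and 52.7, 34.7 and 33.1 at ZT8 (2.79-fold less, -1.49 ± 0.17, adjusted p = 0.0109). Insig2 encodes an anchor that keeps the SREBP factors in the endoplasmic reticulum, and its ZT4 libraries were within 1.13-fold of each other. Of 31 genes of fatty acid oxidation and ketogenesis, Cpt1a, the entry step of mitochondrial oxidation, rose (74.8, 57.0 and 70.4 at ZT4 and 88.8, 107 and 107 at ZT8, 0.58 ± 0.13, adjusted p = 0.0496). Pdk4, the kinase that turns off pyruvate dehydrogenase, fell (2.84, 2.28 and 1.36 at ZT4 and 0.354, 0.647 and 0.626 at ZT8, -1.01 ± 0.18, adjusted p = 0.031). The list's median was 0.25, and 24 of 31 members had a positive difference, as had 7608 of all 13215 genes. Its widest value, 2.02 for the PPAR alpha target Cyp4a14, did not pass (adjusted p = 0.353), with FPKM of 10.1, 8.82 and 10.1 at ZT4 and 3.80, 195 and 84.1 at ZT8. The median was 0.45 without ZT8 replicate 1 and 0.11 without ZT8 replicate 2, where 27 and 20 members were positive. Without ZT8 replicate 1, 11 members of the oxidation list were higher, and without any other library 0 were. The synthesis list held 0 to 3 higher and 0 to 3 lower members, with 0 of either without ZT8 replicate 2. The adjusted p reached 0.171 for Cpt1a, 0.107 for Pdk4 and 0.0567 for Insig2, whose call was lost without ZT4 replicate 1 or ZT8 replicate 2. That of Pdk4 was lost without ZT4 replicate 1, ZT4 replicate 2, ZT8 replicate 2 or ZT8 replicate 3.

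Cholesterol synthesis showed small differences downward. Over all genes, 2.62% rose, 2.76% fell and 7608 of 13215 had a positive difference. Of 25 genes, Fdps (farnesyl diphosphate synthase) and Insig1 fell and Stard4, a cholesterol carrier, rose, while the list's median was -0.36 and 20 of 25 members were lower at ZT8. Insig1 had FPKM of 140.2, 131 and 135 at ZT4 and 85.6, 94.6 and 108 at ZT8 (-0.50 ± 0.09, adjusted p = 0.0366). Fdps had 279, 193 and 206 at ZT4 and 144, 145 and 129.6 at ZT8 (-0.67 ± 0.14, adjusted p = 0.0488). Stard4 had 7.65, 8.28 and 8.30 at ZT4 and 10.5, 13.2 and 11.1 at ZT8 (0.47 ± 0.10, adjusted p = 0.0426). The spread was wide in Hmgcs1, an early enzyme of the pathway, at 153, 75.1 and 142 at ZT4 and 64.2, 54.2 and 44.4 at ZT8 (-1.12 ± 0.28, adjusted p = 0.0666), where ZT4 replicate 2 lay near the ZT8 libraries. The median was -0.23 without ZT4 replicate 1. Without ZT4 replicate 2, 8 members were lower, without ZT8 replicate 1, 3 were, and without any of the other 4 libraries 0 were. The call of Fdps was lost without any of the 6 libraries, and those of Insig1 and Stard4 without any but ZT8 replicate 1 (adjusted p up to 0.162, 0.142 and 0.134).

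Bile acid genes moved both ways, with 3 of 19 higher and 2 lower, against 2.62% and 2.76% of all genes. Cyp7a1, the rate-limiting enzyme of bile acid synthesis, had FPKM of 5.24, 4.75 and 6.24 at ZT4 and 23.3, 24.8 and 17.6 at ZT8 (4.04-fold, 1.83 ± 0.15, adjusted p = 0.0029). Nr1h4, the bile acid receptor FXR, had 37.8, 34.7 and 38.4 at ZT4 and 63.0, 84.0 and 74.0 at ZT8 (1.99-fold, 0.97 ± 0.11, adjusted p = 0.0106). Slc10a1, the sinusoidal uptake carrier NTCP, had 288, 305 and 307 at ZT4 and 396, 464 and 456 at ZT8 (0.54 ± 0.09, adjusted p = 0.0241). All ZT8 libraries were above all ZT4 libraries for the 3 genes, as for every risen gene. Abcb11, the canalicular export pump, fell from 100 ± 3.96 to 74.2 ± 3.72 FPKM (-0.43 ± 0.07, adjusted p = 0.0248), and Acox2, a peroxisomal oxidase of the bile acid side chain, fell from 84.3 ± 4.48 to 65.4 ± 1.17 (-0.36 ± 0.07, adjusted p = 0.0324). Without 1 library, 1 to 6 members were higher and 0 to 4 lower, the most being without ZT8 replicate 1, and Cyp7a1 alone of the 5 kept its call in every such fit. Nr1h4 lost its call without ZT4 replicate 1 or ZT8 replicate 3 (adjusted p up to 0.0558). For Slc10a1, Abcb11 and Acox2 it reached 0.107, 0.11 and 0.139, and these calls were lost without ZT4 replicate 1, ZT4 replicate 3, ZT8 replicate 2 or ZT8 replicate 3.

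In drug metabolism 4 of 19 genes rose and none fell, against 2.62% and 2.76% of all genes, with a median of 0.38. Besides Cyp2a5 and Cyp2a4, Por, the reductase that passes electrons to all microsomal P450 enzymes, had FPKM of 57.2, 46.4 and 68.8 at ZT4 and 155, 189 and 187 at ZT8 (3.08-fold, 1.62 ± 0.15, adjusted p = 0.00563). Cyp1a2, which oxidizes caffeine, had 248, 292 and 260.4 at ZT4 and 352, 353 and 369.7 at ZT8 (0.43 ± 0.08, adjusted p = 0.0376). Alas1, the rate-limiting enzyme of heme synthesis, had the largest difference of the list, 2.27 ± 0.56, but missed the threshold (adjusted p = 0.0666). Its FPKM were 24.2, 56.3 and 57.9 at ZT4 and 247, 401 and 93.7 at ZT8, with no overlap between the time points. The median was 0.58 without ZT8 replicate 1. Leaving out 1 library left 2 to 8 members higher, 2 without ZT4 replicate 1, ZT8 replicate 2 or ZT8 replicate 3 and 8 without ZT8 replicate 1. Cyp2a4 lost its call in the first 3 of these fits (adjusted p up to 0.0512), and Cyp1a2 in the same fits and without ZT4 replicate 3 (up to 0.141).

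Amino acid and mitochondrial genes shifted little but mostly upward. Of all genes tested, 2.62% rose and 2.76% fell. Of 25 genes of the urea cycle and amino acid breakdown, 4 rose and none fell, among them Slc7a2, a carrier of arginine and lysine (0.58 ± 0.12, adjusted p = 0.0481), Asl, argininosuccinate lyase (0.46 ± 0.10, adjusted p = 0.0472), and Oat, ornithine aminotransferase (0.41 ± 0.09, adjusted p = 0.0471). The rises of these 3 genes were between 1.33-fold and 1.52-fold. Of 18 genes of the TCA cycle and pyruvate dehydrogenase, all 18 had a positive difference, from 0.01 to 0.59 with a median of 0.22, and 10 had groups that did not overlap. Only Pdhb, a subunit of pyruvate dehydrogenase, passed the test (61.5, 58.2 and 56.4 at ZT4 and 78.6, 75.2 and 83.9 at ZT8, 0.43 ± 0.07, adjusted p = 0.0262). Idh3a, of isocitrate dehydrogenase, had 9.81, 6.16 and 10.8 at ZT4 and 14.0, 12.8 and 14.1 at ZT8 (0.59 ± 0.18, adjusted p = 0.106), with ZT4 replicate 2 the lowest. Of 78 respiratory chain subunits, 75 were higher at ZT8 with a median of 0.17, and Ndufa5 of complex I alone was called (0.33 ± 0.07, adjusted p = 0.0444). In the Cyber-T kind of test at a nominal P of 0.01, 0 subunits passed as higher, so Ndufa5 did not, and 1 as lower. Over all genes tested, 7608 of 13215 had a positive difference, and in 2354 all ZT8 libraries lay above all ZT4 libraries.

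Ribosomal protein genes had medians a little above the 0.03 of all genes. None of 79 cytosolic ribosomal protein genes was called by limma, 1 had an unadjusted p under 0.05, 1 passed the Cyber-T kind of test at a nominal P of 0.01, and the median was 0.08, or 0.04 without ZT4 replicate 3 or ZT8 replicate 2. Of 74 mitochondrial ones, Mrpl12 rose (0.32 ± 0.06, adjusted p = 0.0321), with a median of 0.09. Of these 74, 62 had a positive difference and 28 had all ZT8 libraries above all ZT4 libraries (7608 and 2354 of all 13215 genes). At an unadjusted p under 0.05, 18 of the 74 were higher and 4 lower. The Cyber-T kind of test gave 2 of them as higher and 0 as lower, and Mrpl12 did not pass it. Of 38 proteasome subunits, none was called by limma, 8 had an unadjusted p under 0.05 and 0 passed the Cyber-T kind of test. Of all 13215 genes, 1997 were higher and 1420 lower at that p, and 985 and 852 in that test. Without 1 library, 0 to 4 genes of amino acid breakdown, 0 to 4 of the TCA cycle, 0 to 2 of the respiratory chain and 0 to 4 mitochondrial ribosomal genes were higher, the highest counts being those without ZT8 replicate 1. Without ZT4 replicate 1, ZT4 replicate 3, ZT8 replicate 2 or ZT8 replicate 3, none of the genes of these 4 lists was called as higher. The adjusted p in these fits reached 0.108 for Pdhb, 0.165 for Ndufa5, 0.139 for Mrpl12 and 0.158 for Asl.

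Of 21 temperature-responsive genes, 6 fell, all of them HSP90 genes, HSP90 cochaperones or an HSP110 family member, and Hspa1a and Hspa1b rose. The list as a whole had 11 positive differences and a median of 0.06. Of all genes tested, 2.62% rose and 2.76% fell. Hsp90aa1, the inducible cytosolic HSP90, had FPKM of 79.6, 77.0 and 80.8 at ZT4 and 30.4, 26.7 and 27.5 at ZT8, with libraries within 1.05-fold of each other at ZT4 and 1.14-fold at ZT8 (2.81-fold less, -1.46 ± 0.07, adjusted p = 0.000527). Hsp90ab1, its constitutive paralogue, went from 343 ± 0.692 to 261 ± 5.70 FPKM (-0.40 ± 0.06, adjusted p = 0.0234). Among the HSP90 cochaperones, Stip1 fell (41.7, 42.8 and 36.5 at ZT4 and 22.8, 25.8 and 26.6 at ZT8, -0.66 ± 0.09, adjusted p = 0.0162) and Fkbp4 fell (68.1, 75.8 and 65.4 at ZT4 and 49.8, 46.0 and 48.0 at ZT8, -0.53 ± 0.08, adjusted p = 0.0188), as did Ahsa1 (-0.39 ± 0.08, adjusted p = 0.0394) and the HSP110 family member Hspa4l (-0.71 ± 0.11, adjusted p = 0.0199). The HSP70 genes Hspa1a and Hspa1b, which are nearly identical, were low at both times. Hspa1a had FPKM of 0.671, 0.496 and 0.782 at ZT4 and 1.31, 1.32 and 1.65 at ZT8 and rose (0.56 ± 0.09, adjusted p = 0.0248). Hspa1b had 2.55, 1.17 and 2.23 at ZT4 and 3.88, 4.37 and 5.09 at ZT8 and rose as well (0.89 ± 0.19, adjusted p = 0.0486), and their separate values are uncertain for that reason. Hsp90ab1 and Ahsa1 were named after their values were seen, since the rule names 4 genes per list and direction. Without 1 library, 1 to 7 members were lower and 0 to 3 higher, 1 lower without ZT4 replicate 1, ZT8 replicate 2 or ZT8 replicate 3, 3 without ZT4 replicate 3 and 7 without ZT8 replicate 1. The highest adjusted p was 0.00626 for Hsp90aa1, 0.0777 for Stip1, 0.0959 for Fkbp4, 0.0894 for Hspa4l, 0.0894 for Hspa1a and 0.156 for Hspa1b.

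Genes of the unfolded protein response, which serve folding in the endoplasmic reticulum, were the list with the most falls. Of 24 members, 7 fell and 1 rose, 17 had all ZT8 libraries below all ZT4 libraries, and the median log2 difference was -0.73. Over all genes, 2.76% fell, 2.62% rose and 1699 of 13215 had all ZT8 libraries below all ZT4 libraries. Sdf2l1, a chaperone cofactor, had FPKM of 35.6, 64.5 and 28.9 at ZT4 and 16.2, 7.42 and 7.64 at ZT8 (-1.95 ± 0.37, adjusted p = 0.0363). Hsp90b1, the HSP90 of the endoplasmic reticulum, had 297, 425 and 279 at ZT4 and 187, 172 and 183 at ZT8 (-0.86 ± 0.16, adjusted p = 0.0334). Pdia6, a disulfide isomerase, had 124, 167 and 114 at ZT4 and 84.9, 72.5 and 69.5 at ZT8 (-0.81 ± 0.15, adjusted p = 0.0359). ZT4 replicate 2 was the highest of its group in each, as it was in Dnajb11, a cochaperone of BiP (49.2, 70.0 and 46.0 at ZT4 and 35.3, 27.8 and 28.7 at ZT8, -0.81 ± 0.17, adjusted p = 0.0471). The same library was furthest out in members that did not pass: Creld2 had 36.7, 101.5 and 25.0 at ZT4 and 11.5, 12.4 and 12.0 at ZT8 (-1.84 ± 0.46, adjusted p = 0.066), and Hspa5, which encodes BiP itself, had 251, 439 and 220.1 at ZT4 and 136, 162 and 171 at ZT8 (-0.89 ± 0.25, adjusted p = 0.0874). Herpud1, which serves the degradation of misfolded proteins, was the member called as higher, with 118, 76.4 and 89.3 at ZT4 and 156, 228 and 272 at ZT8 (2.31-fold, 1.19 ± 0.23, adjusted p = 0.0396). It was 1 of 4 members with a positive difference. At an unadjusted p under 0.05, 3 members were higher and 17 lower (1997 and 1420 of all 13215 genes). Without ZT4 replicate 2, 8 members were lower and Hsp90b1 fell by 0.67 (adjusted p = 0.0226). Without ZT8 replicate 1, 7 were lower, and without any of the other 4 libraries 0 were, with an adjusted p of up to 0.132 for Hsp90b1, 0.138 for Pdia6, 0.137 for Sdf2l1, 0.164 for Dnajb11 and 0.143 for Herpud1. With no filter on low values 2 members were lower, and under median-of-ratios scaling or quantile normalization 12 were.

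The acute-phase genes, most of whose products hepatocytes release in inflammation, had the lowest median, -0.75, but 1 call in 22. At an unadjusted p under 0.05, 9 were lower, and by the Cyber-T kind of test 14 were lower and 1 higher. Of all 13215 genes, 1420 were lower at that p, and 852 were lower and 985 higher in that test. The gene called by limma was Stat3, the transducer of interleukin 6, which fell. Its FPKM were 46.3, 36.0 and 40.8 at ZT4 and 23.8, 17.8 and 18.6 at ZT8 (2.04-fold less, adjusted p = 0.0158). Serum amyloid transcripts varied between mice of the same time: Saa2, which shares much of its sequence with Saa1, had 1905, 20.4 and 1637 at ZT4 and 452, 9.69 and 7.67 at ZT8 (-3.54 ± 2.16, adjusted p = 0.348). Lcn2, a siderophore binder, had 60.6, 2.61 and 72.8 at ZT4 and 22.5, 1.33 and 0.735 at ZT8 (-2.48 ± 1.41, adjusted p = 0.318). The metallothionein gene Mt2 was high in ZT4 replicates 1 and 3 alone, at 359, 4.69 and 477 at ZT4 and 4.90, 3.73 and 1.94 at ZT8 (-4.51 ± 1.60, adjusted p = 0.138). The groups overlapped for these 3 genes, and ZT8 replicate 1 was the third highest library for Saa2 and Lcn2. Of the 5 neutrophil markers 4 were tested and none was called by limma, with 2 at an unadjusted p under 0.05 and 3 by the Cyber-T kind of test, and 1 called as lower without ZT4 replicate 2. Their summed FPKM were 2.06 to 6.74 at ZT4 and 0.685 to 1.30 at ZT8. The 9 Kupffer cell markers summed to 74.2 to 139.5 FPKM at ZT4 and 60.8 to 116 at ZT8, with none called and 0 at an unadjusted p under 0.05. The part of these cells in the result was not tested. Stat3 lost its call without ZT4 replicate 1, ZT4 replicate 3, ZT8 replicate 2 or ZT8 replicate 3 (adjusted p up to 0.0777), and without ZT4 replicate 2 or ZT8 replicate 1 there were 3 and 4 called members.

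**Figure D4:**
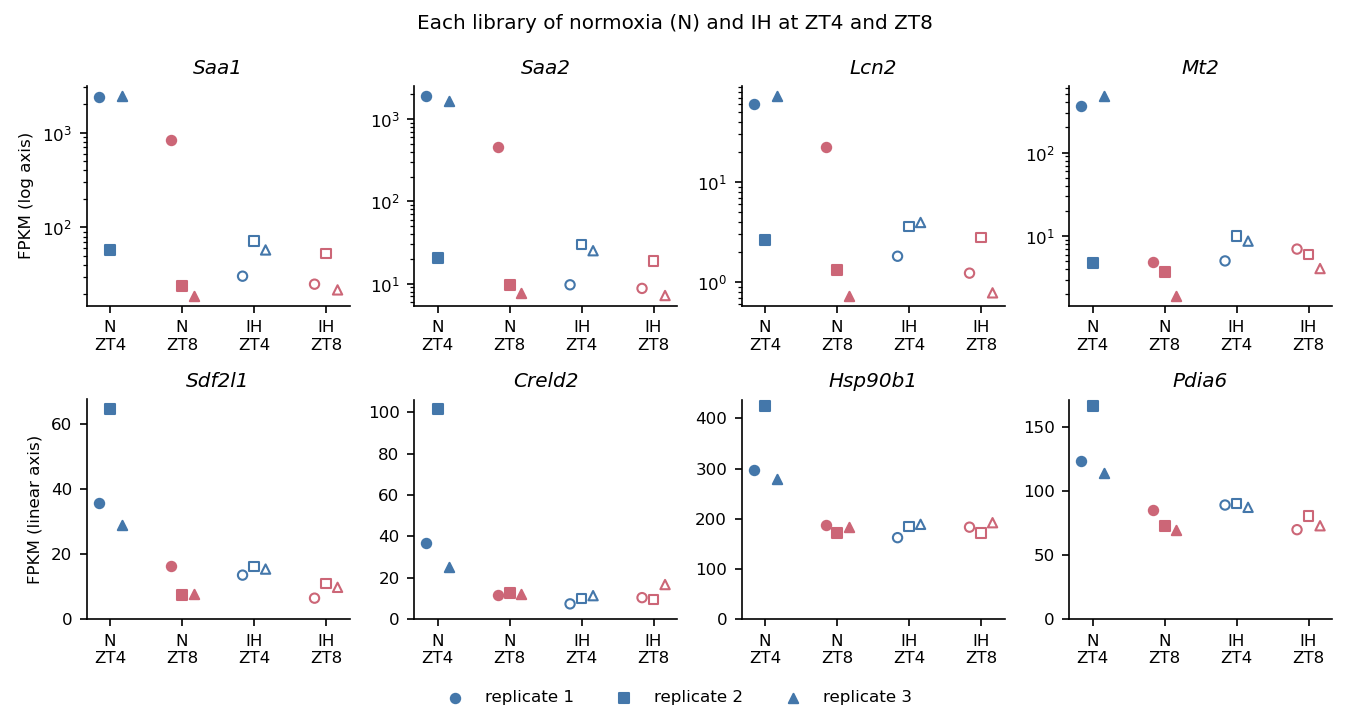
FPKM of 4 acute-phase and metallothionein genes (top, log axis) and 4 genes of the endoplasmic reticulum (bottom, linear axis from 0) in each normoxia (N, filled) and IH (open) library of ZT4 and ZT8, with 1 marker shape per replicate number. Saa1, Saa2 and Lcn2 are high in N ZT4 replicates 1 and 3 and in N ZT8 replicate 1, while Sdf2l1, Creld2, Hsp90b1 and Pdia6 are highest in N ZT4 replicate 2 and lower in all 3 N ZT8 libraries than in any N ZT4 library.

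Interferon-stimulated genes were lower in 19 of 20 members with a median of -0.22, and 2 fell. Over all genes, 7608 of 13215 had a positive difference and 2.76% fell. At an unadjusted p under 0.05, 9 members were lower and 0 higher (1420 and 1997 of all genes). The Cyber-T kind of test gave 6 lower and 0 higher (852 and 985 of all genes). Oasl1, an antiviral factor, had FPKM of 10.8, 9.70 and 12.1 at ZT4 and 5.39, 4.70 and 5.28 at ZT8 (2.12-fold less, -0.95 ± 0.10, adjusted p = 0.00685). Irgm1, an immunity-related GTPase, had 28.3, 22.9 and 28.1 at ZT4 and 17.8, 18.0 and 17.7 at ZT8 (-0.53 ± 0.09, adjusted p = 0.029). Neither pair of groups overlapped, as for every called gene. The call of Irgm1 was lost without ZT4 replicate 1, ZT4 replicate 3, ZT8 replicate 2 or ZT8 replicate 3 (adjusted p up to 0.113).

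In autophagy and growth signalling, single genes moved, where 2.62% of all genes rose and 2.76% fell. Of 35 autophagy and lysosome genes, 3 rose: Bnip3, a mitophagy receptor (60.0, 66.8 and 60.5 at ZT4 and 81.9, 132 and 122 at ZT8, 0.81 ± 0.17, adjusted p = 0.0496), Atg4d, a protease of the autophagosome (0.52 ± 0.10, adjusted p = 0.0321), and Tfeb, the master factor of lysosomal genes (0.48 ± 0.08, adjusted p = 0.0279). Sqstm1, the cargo receptor p62, fell from 230.1 ± 13.9 to 171 ± 5.18 FPKM (-0.42 ± 0.07, adjusted p = 0.0279). Of 20 genes of the insulin and growth hormone axis, Igfbp4, which binds insulin-like growth factors, rose (464, 467 and 506 at ZT4 and 762, 768 and 719.8 at ZT8, 0.65 ± 0.08, adjusted p = 0.0109) and so did Pik3r1, the regulatory subunit of phosphoinositide 3-kinase (0.81 ± 0.17, adjusted p = 0.0461). Stat5b, which carries the growth hormone signal, fell from 12.8 ± 1.15 to 7.98 ± 0.853 FPKM (-0.62 ± 0.10, adjusted p = 0.0243). Igfbp4 was the steadiest of these, with replicates within 1.09-fold at ZT4 and 1.07-fold at ZT8. Without ZT4 replicate 1, ZT4 replicate 3, ZT8 replicate 2 or ZT8 replicate 3, none of the autophagy list was called, and Igfbp4 lost its call in the same fits except that without ZT4 replicate 3 (adjusted p up to 0.0714). The adjusted p of Stat5b reached 0.107 and that of Pik3r1 0.161, and each was called in 1 of the 6 fits.

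Among the cell cycle list, Cdkn1a was the only call of 16, and the same gene was the only call of 13 glucocorticoid receptor genes and targets. Members of the latter that did not pass spanned -4.51 for Mt2 to 0.84 for Tsc22d3, the leucine zipper GILZ. Of 17 immediate early genes and genes of the CREB pathway, none was called by limma. At an unadjusted p under 0.05, 1 was higher and 3 lower (1997 and 1420 of all 13215 genes). By the Cyber-T kind of test 5 were lower (852 of all genes). Their median was -0.26, with 4 of 17 positive, but 0.02 with 9 positive without ZT4 replicate 2, -0.13 without ZT8 replicate 2, -0.44 without ZT4 replicate 1, -0.55 without ZT4 replicate 3 and -0.61 without ZT8 replicate 1. Without ZT4 replicate 1, 3 of them were called as lower. Of the glucocorticoid list 3 were lower without ZT4 replicate 2, and 0 without ZT4 replicate 1, ZT8 replicate 2 or ZT8 replicate 3.

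The fall or rise from ZT4 to ZT8 was set against the other normoxia time points, which share these libraries. Of the 346 risen genes, 198 (57.2%) had their highest mean of the day at ZT8 and 109 at ZT12, and 200 (57.8%) had their lowest at ZT4. Over all genes tested, 21.4% had their highest mean at ZT8 and 21.8% at ZT12, and 19.6% had their lowest at ZT4. Of the 365 fallen genes, 151 (41.4%) had their lowest mean at ZT8 and 187 at ZT12, while 147 had their highest at ZT0 and 141 (38.6%) at ZT4. Over all genes 12.2% had their lowest mean at ZT8 and 31.2% at ZT12, while 26.7% had their highest at ZT0 and 11.2% at ZT4. A gene chosen as higher at ZT8 cannot have its highest mean at ZT4, so the shares of the called and of all genes are given as a description. ZT12 replicate 2 stood apart, with an FPKM sum of 808274 against 567374 to 626371 in the other 17 normoxia libraries. With that library left out of the ZT12 mean, an alternative chosen after seeing the data, 126 of the risen genes had their highest mean at ZT8 and 197 at ZT12, and 146 of the fallen genes had their lowest at ZT8 and 193 at ZT12. Over all genes 16.5% then had their highest mean at ZT8 and 26.5% at ZT12. The lowest mean was then at ZT8 for 13.3% of all genes and at ZT12 for 18.8%. Rgs16 and Dbp were at their highest of the day at ZT8 (72.1 ± 20.4 and 70.8 ± 7.77 FPKM, SD, n = 3) and at 20.7 ± 9.66 and 31.9 ± 24.4 at ZT12, or 25.8 and 43.0 without replicate 2. Usp2 and Ciart were at 19.8 ± 5.32 and 14.3 ± 3.41 at ZT8 and 20.9 ± 11.2 and 14.5 ± 6.44 at ZT12, or 26.8 and 18.1 without replicate 2. Arntl stood at 10.7 ± 1.38 FPKM at ZT0, 7.68 ± 0.832 at ZT4, 0.306 ± 0.0731 at ZT8 and 0.468 ± 0.268 at ZT12.

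The same 4 h were compared with the IH livers, whose libraries are separate and which at ZT4 and ZT8 were within or at the end of the daily hypoxia. There, 432 genes (3.27%) were higher and 489 (3.7%) lower at ZT8. Of the 346 genes that rose in normoxia, 150 (43.4%, and 34.7% of the IH calls) rose in IH, and of the 365 that fell, 152 (41.6%, and 31.1% of the IH calls) fell in IH. No gene was called in opposite directions. Of the normoxia calls, 322 of the risen (93.1%) and 342 of the fallen (93.7%) had the same sign in IH, against 44.3% of all genes with a positive and 55.6% with a negative difference there. The median IH difference was 0.27 over the genes risen in normoxia and -0.30 over the fallen.

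**Figure D5:**
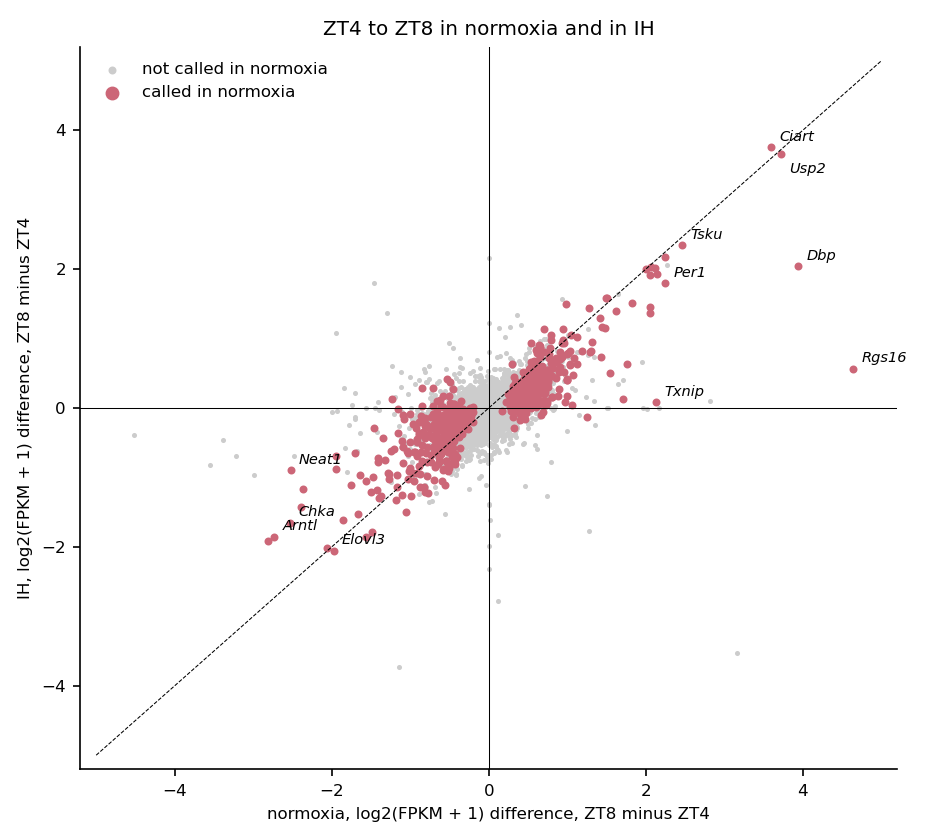
Log2(FPKM + 1) difference, ZT8 minus ZT4, in normoxia (x axis) and in IH (y axis) for all 13215 genes tested, with genes called in normoxia in red and the dashed line marking equal differences. Ciart, Usp2 and Tsku lie near the line, and Rgs16, at 4.64 in normoxia and 0.57 in IH, lies furthest below it among the called genes.

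The test of the difference between the conditions, fitted over the 12 libraries, called 1 gene (0.00757%), while 1573 (11.9%) had an unadjusted p under 0.05. That gene was Rgs16, with FPKM in IH of 86.8, 77.5 and 78.0 at ZT4 and 155, 102 and 108 at ZT8, and an IH difference of 0.57 ± 0.15 (adjusted p = 0.0796). Its normoxia step exceeded the IH step by 4.08 ± 0.40 on the log2 scale (adjusted p = 0.00722). The IH libraries of both times lay above the normoxia libraries of ZT4 and, at ZT4, within the range of those of ZT8. Next in order were Tacc2, a centrosome-associated protein gene that fell in normoxia (5.87, 5.91 and 5.72 at ZT4 and 2.82, 2.51 and 2.81 at ZT8, -0.88 ± 0.07, adjusted p = 0.00303), Tmie, Nr1h4 and Ppfibp1, none of which passed (adjusted p = 0.0546, 0.11, 0.11 and 0.11). Tacc2 differed by -0.19 ± 0.06 in IH, and Nr1h4, which rose by 0.97 ± 0.11 in normoxia, by 0.09 ± 0.07. Without ZT4 replicate 2 the test called 38 genes, without ZT8 replicate 1 it called 75, and without any of the other 4 libraries 1. Rgs16 was called in every one of these fits, with an adjusted p of up to 0.0489.

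For clock genes the IH differences were -1.85 ± 0.32 for Arntl, 1.80 ± 0.35 for Per1, 1.59 ± 0.23 for Per2, 2.02 ± 0.20 for Per3, 3.75 ± 0.29 for Ciart and 3.65 ± 0.28 for Usp2. The difference between conditions did not pass for any of them, with adjusted p between 0.384 and 0.957. Of the 15 core clock genes, 5 had an unadjusted p of that difference under 0.05, and the smallest was that of Clock, which differed by -0.87 ± 0.07 in IH and -0.51 ± 0.07 in normoxia (adjusted p = 0.219). Nr1d2 differed by 0.63 ± 0.09 and 1.04 ± 0.11 (adjusted p = 0.342). For Dbp it was 1.90 ± 0.55 (adjusted p = 0.251), with IH FPKM of 8.78, 30.5 and 37.1 at ZT4 and 98.7, 95.4 and 84.4 at ZT8. Unfolded protein response genes had a median of -0.03 in IH, with 2 higher and 2 lower. For 16 of the 24 the interaction had an unadjusted p under 0.05, against 11.9% of all genes, and for 0 of 24 did limma give an adjusted p under 0.05. Hsp90b1 had IH FPKM of 162, 185 and 189 at ZT4 and 183, 171 and 192 at ZT8, a difference of 0.03 ± 0.07 against -0.86 ± 0.16 in normoxia (adjusted p of the difference = 0.148). Hsp90aa1 differed by -0.28 ± 0.17 in IH and -1.46 ± 0.07 in normoxia (adjusted p of the difference = 0.11), and Txnip by 0.09 ± 0.32 and 2.14 ± 0.24 (0.149 adjusted p). The Saa1 level was at most 72.1 FPKM in the 6 IH libraries, against up to 2434 in normoxia, and the part of the mice with high Saa1 in these differences was not tested.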

How the data were processed

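Liver RNA was measured by stranded poly-A RNA sequencing in 36 libraries, of which the 6 normoxia libraries of ZT4 and ZT8 were compared. The deposited values are FPKM, which the authors made per replicate with TopHat2 2.1.1 and Cufflinks 2.2.1 on mm10, per the submitters' processing notes. The annotation and any scaling between libraries are not given in the sources used here. Both tables carry the same column names, and the condition of each was taken from its name. Symbols on more than 1 row (280) were left out. Values were tested as log2(FPKM + 1) where a gene averaged 0.1 FPKM or more, in R 4.3.3 with limma 3.58.1 (intensity trend, 4 residual degrees of freedom, Benjamini-Hochberg adjusted p under 0.05). This scale understates the change of low genes, and folds are ratios of mean FPKM. The step was compared with IH by an interaction term over 12 libraries. Each library is 1 mouse. Genes were named by a rule. It took the 10 largest rises and falls among called genes averaging 1 FPKM or more whose groups did not overlap. It also took all clock genes, up to 4 called genes per list and direction, and the 5 smallest interaction p-values. Saa1, Saa2, Lcn2, Mt2, Tsc22d3, Hmgcs1, Cyp4a14, Alas1, Idh3a, Creld2, Hspa5, Hsp90ab1, Ahsa1 and Alb fall outside it and were chosen after their values were seen. A few genes that the rule names are not reported here. Members and gene lists were chosen with earlier results of these data known. Motif matches were read from RefSeq GRCm38.p6 promoters with Python 3.11.15, and figures drawn with matplotlib 3.10.9.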

Additional observations from a re-analysis of the deposited data

Results flagged for a closer look

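The step from ZT4 to ZT8 differed between normoxia and IH for Rgs16, by 4.08 on the log2(FPKM + 1) scale (normoxia minus IH, limma adjusted p = 0.00722). Its mean was 2.01 ± 1.26 FPKM at ZT4 and 72.1 ± 20.4 at ZT8 in normoxia (SD, n = 3), where all ZT8 libraries were above all ZT4 libraries. It was the only one of the named genes whose difference between the conditions passed the test, and in the fits that left out 1 normoxia library it lay between 3.83 and 4.39. Groups of 3 libraries were not searched for outlying samples.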

How the results depend on the processing

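The counts as reported were 346 genes higher, 365 lower and 1 with a different step in IH. No call among the 711 changed sign in any of the 21 alternatives. Most of these could not change a sign, because the groups of called genes did not overlap. Only the settings that rescaled, normalized or trend-corrected the values could. With no filter on low values the counts were 184, 231 and 2, at a nominal P of 0.01 they were 829, 684 and 449, and with the length and GC trend removed 543, 562 and 2. The Cyber-T kind of test at a nominal P of 0.01 gave 985 higher and 852 lower. With all 18 normoxia libraries the counts were 147 and 237, and with 15, without ZT12, 888 and 565. Leaving out 1 library gave 25 to 1009 higher, 46 to 494 lower and 1 to 75 with a different step. These fits hold 5 of the 6 libraries, and the cause of the shifts was not tested. The share of higher calls was 48.7% as reported, 34.6% to 67.1% without 1 library, 38.3% with 18 libraries and 61.1% with 15. A mean of at least 1 FPKM, median-of-ratios scaling, quantile normalization, no intensity trend and robust empirical Bayes each gave 2 genes with a different step. No scaling moved the median of all genes by 0.1, and the medians of the core clock and hypoxia-inducible lists fell below 0 under quantile normalization. Small list medians did depend on the scaling. Under quantile normalization they were 0.03 for cytosolic and 0.04 for mitochondrial ribosomal proteins, against 0.01 for all genes. The respiratory chain then had 0.11 with 72 of 78 positive, and 17 of 18 TCA cycle genes were positive. Ndufa5 and Asl lost their calls under median-of-ratios scaling.

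Replicate numbers are shared by the groups, but the deviations of same-numbered libraries correlated by -0.0019, 0.226 and -0.024, and 2 of 6 libraries correlated best with their own number, so the numbers were not taken to pair the samples. With a replicate block, 109 genes were higher, 142 lower and 2 had a different step.

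Of the 80 called genes named, 24 kept their call under every alternative. None reversed, which most of the alternatives could not have shown. The depth behind each value is not known, so genes near 0 FPKM cannot be given a detection limit.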
